A study of Serapias vomeracea and Serapias vomeracea
Tulasnella calospora with 6 samples.

Results

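Among the transcripts of Serapias vomeracea protocorms, 239 of 205249 assembled contigs were abundant and nearly level in every library, whether or not the mycorrhizal fungus Tulasnella calospora was there. Serapias vomeracea is a terrestrial Mediterranean orchid, and a protocorm is the small body that its seed forms on germination, before it has a shoot or a root. A contig is a stretch of transcript sequence put together from reads by the assembler Trinity. The contigs were chosen by their measured CPM, the reads of a contig scaled to the total of its library, in all 6 libraries. They were at least 500 bp long, had at least 50 CPM in each library, and had a highest CPM of at most 1.5 times the lowest. Length and CPM minimum left 1694 contigs, and the steady ones made up 14.1% of these. The same values that chose the steady contigs set their levels and ratios between groups, so these are given as a description. Test calls among the steady contigs are counted below as description only.

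The mycorrhizal group held 3 libraries from protocorms germinated with the fungus on oat medium, and the asymbiotic group 3 libraries from protocorms germinated alone on a modified BM1 medium. Both grew in darkness at 20 °C and were taken without chlorophyll at the stage labelled P2, so fungus and medium differ together between the groups and cannot be told apart. The mycorrhizal tissue held plant and fungus, and reads were counted on an assembly that is stated to come from asymbiotic protocorms. The labels call the libraries biological replicates, and name no strain or genotype of the plant or the fungus. Mycorrhizal libraries held 174635344 to 216364014 reads on the assembly and asymbiotic ones 87991285 to 109869317. Mycorrhizal replicate 3 had reads on the fewest contigs, 51806, against 83622 to 164346 in the other 5 libraries.

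Orchid seeds hold almost no reserves, and in nature the protocorm is fed by a fungus whose coils fill part of its cells. Any tissue also makes transcripts for protein synthesis, the cytoskeleton and basic metabolism, and some of these are used as internal standards when other genes are measured by PCR. A steady CPM means a steady share of the library, and a share can stay level while the amount per cell changes. In whole tissue, fewer cells of a type and less RNA per cell cannot be told apart. Contigs carry identifiers and no gene names in the files, and no annotation of this species was used, so the steady contigs cannot be assigned to such roles here.

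The 239 contigs held 3.97%, 4.04% and 4.22% of the reads in mycorrhizal replicates 1 to 3, against 4.304%, 4.19% and 4.17% in asymbiotic replicates 1 to 3. The groups overlapped, at 4.08% ± 0.125 and 4.22% ± 0.0709 (SD, n = 3 each). All 1694 contigs of the same length and CPM minimum together held 40.6% ± 3.37 of the mycorrhizal and 51.7% ± 1.08 of the asymbiotic reads (SD, n = 3 each), and there the groups did not overlap. The geometric mean of the steady contigs was 134.6 ± 4.25 CPM in mycorrhizal and 137.0 ± 1.55 CPM in asymbiotic protocorms (SD, n = 3 each). Between the highest and the lowest of the 6 libraries it differed 1.06-fold.

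The limit on the highest-to-lowest ratio does not fall in a gap between kinds of contig. The 3 members nearest to it had ratios of 1.4985, 1.4995 and 1.4999, and the 3 contigs just beyond it had 1.501, 1.503 and 1.504. Lowest CPM of 50.6, 51.2 and 51.5 stood just inside the CPM minimum and of 49.9, 49.8 and 49.5 just outside it. In length, members of 506, 562 and 568 bp were the shortest, and 2 contigs, of 497 and 275 bp, met the other conditions but were too short. Among the 1694 contigs the median ratio was 2.02, and the quartiles were 1.63 and 2.63. Among the 239 the median was 1.40, with 51 contigs at 1.3 or less, 13 at 1.2 or less and none at 1.1 or less.

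**Figure D1:**
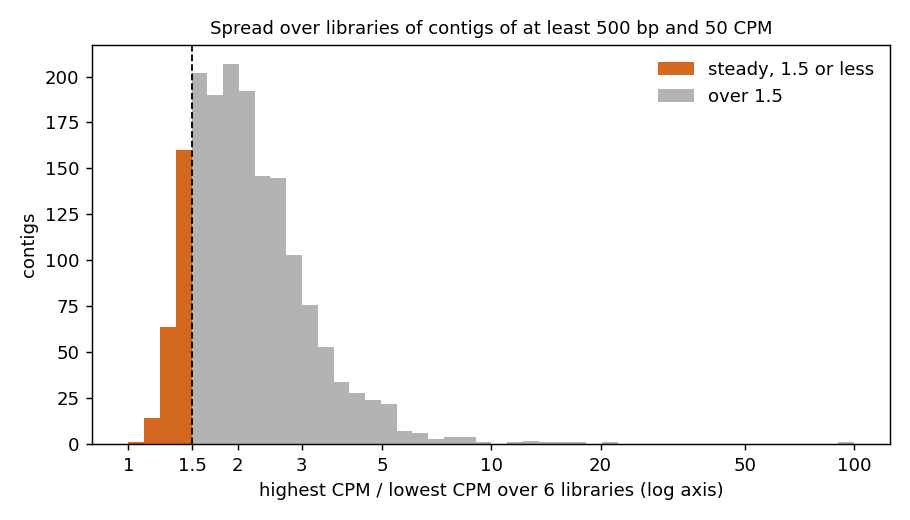
Number of contigs (vertical axis) by the ratio of highest to lowest CPM over the 6 libraries (horizontal log axis), for the 1694 contigs of at least 500 bp and 50 CPM. The 239 steady contigs lie left of the dashed line at 1.5, on the rising flank of a single hump that has its median at 2.02.

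The most abundant steady contig was TRINITY_DN68595_c1_g1_i1, 1278 bp long and the only contig of its Trinity gene, the name Trinity gives to a set of contigs that share sequence. It stood at 1288, 1167 and 1434 CPM in mycorrhizal replicates 1 to 3, against 1611, 1659 and 1485 CPM in asymbiotic replicates 1 to 3. All mycorrhizal libraries were below all asymbiotic ones, by a group ratio of 0.818. Next was TRINITY_DN68751_c0_g1_i2, 1449 bp long, at 880, 814 and 789 CPM in mycorrhizal and 1061, 965 and 910.1 CPM in asymbiotic replicates 1 to 3. Here too the mycorrhizal libraries were all lower, with a group ratio of 0.846. Nearly all reads of both were unique to the contig, 100% and 99.7%.

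The other 8 of the 10 most abundant members were 753 to 2507 bp long. The third, 1511 bp long, had 811, 678 and 741 CPM in mycorrhizal and 983, 999 and 847 CPM in asymbiotic replicates 1 to 3, again without overlap. The fourth, 1656 bp long, had 876, 743 and 868 CPM in mycorrhizal and 889, 869.7 and 776 CPM in asymbiotic replicates 1 to 3. Its groups overlapped and its highest library exceeded the lowest 1.197-fold, the narrowest range of the 10. The fifth, 1796 bp long, had 572, 832 and 727 CPM in mycorrhizal and 837, 760.0 and 760.2 CPM in asymbiotic replicates 1 to 3. Its lowest value was mycorrhizal replicate 1, and 6.60% of its reads were unique. The sixth, 753 bp long, had 709, 733 and 623 CPM in mycorrhizal and 875, 703 and 791 CPM in asymbiotic replicates 1 to 3. Its groups overlapped, with mycorrhizal replicate 3 the lowest.

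The seventh, 2507 bp long, had 576, 621 and 826 CPM in mycorrhizal and 705, 705 and 580.1 CPM in asymbiotic replicates 1 to 3. Mycorrhizal replicate 3 was its highest library and mycorrhizal replicate 1 its lowest. The eighth, 1110 bp long, had 443, 482 and 578 CPM in mycorrhizal and 655, 593 and 621 CPM in asymbiotic replicates 1 to 3. All its mycorrhizal libraries were lower, at a group ratio of 0.805. The ninth, 1119 bp long, was higher on average in mycorrhizal protocorms, at 489, 599.7 and 631 CPM, against 469, 531 and 482 CPM in asymbiotic replicates 1 to 3. The groups overlapped, and their means had a ratio of 1.16. The tenth, 771 bp long, had 409, 389.97 and 374 CPM in mycorrhizal and 548, 386 and 516 CPM in asymbiotic replicates 1 to 3. Asymbiotic replicate 2 lay among the mycorrhizal libraries, while the other 2 asymbiotic libraries were higher. Of the 10, 8 had a lower mean in mycorrhizal protocorms, 4 of them without overlap. Among all steady contigs, 35 were lower and 17 higher without overlap. Among the 1694 contigs of the same length and CPM minimum, 25.7% were lower and 15.2% higher without overlap. Whether the 10 differ from these in direction was not tested.

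Levels between contigs can be compared only per length, as RPKM (CPM per kb of contig). By mean RPKM over the 6 libraries the 1278 bp contig led with 1127, followed by the 753 bp contig with 981 and the 1449 bp contig with 623. The 2507 bp contig, seventh by CPM, was 29th by RPKM with 267. Over all 239 the median was 71.1 RPKM, with quartiles of 45.5 and 126. The lowest, at 6.82 RPKM, was a contig of 15392 bp, the longest of the 188302 contigs with a read. Among the 100 contigs with the highest mean CPM of each group, 7 were steady in the mycorrhizal list and 7 in the asymbiotic list.

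The steadiest contig was TRINITY_DN77192_c4_g4_i2, 1296 bp long, with a highest-to-lowest ratio of 1.1005. It had 164, 158 and 158 CPM in mycorrhizal and 166, 173 and 157 CPM in asymbiotic replicates 1 to 3. On unique reads, which were 86.7% of its total, its ratio was 1.09. The next was TRINITY_DN60618_c0_g1_i2, 2054 bp long, with 89.2, 94.0 and 97.1 CPM in mycorrhizal and 95.4, 83.8 and 85.6 CPM in asymbiotic replicates 1 to 3. Its reads were all unique and its ratio was 1.16. In both, libraries of the groups interleaved.

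The third by steadiness, 1759 bp long, had 74.96, 77.8 and 80.4 CPM in mycorrhizal and 78.1, 80.2 and 87.1 CPM in asymbiotic replicates 1 to 3. All of its reads were unique, and the groups overlapped. The fourth, 1867 bp long, had 203, 197 and 186 CPM in mycorrhizal and 199, 209.5 and 180 CPM in asymbiotic replicates 1 to 3. Its group means, 195.3 ± 8.61 and 196.1 ± 15.1 CPM (SD, n = 3 each), had a ratio of 0.996. Its reads were 60.9% unique, and the CPM of these varied 1.73-fold. The fifth, 965 bp long, had 303, 303 and 309.6 CPM in mycorrhizal and 354, 323 and 319 CPM in asymbiotic replicates 1 to 3. Its mycorrhizal libraries lay within a few CPM of each other and below all asymbiotic ones. Its reads were 24.8% unique, and the CPM of these varied 1.90-fold.

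**Figure D2:**
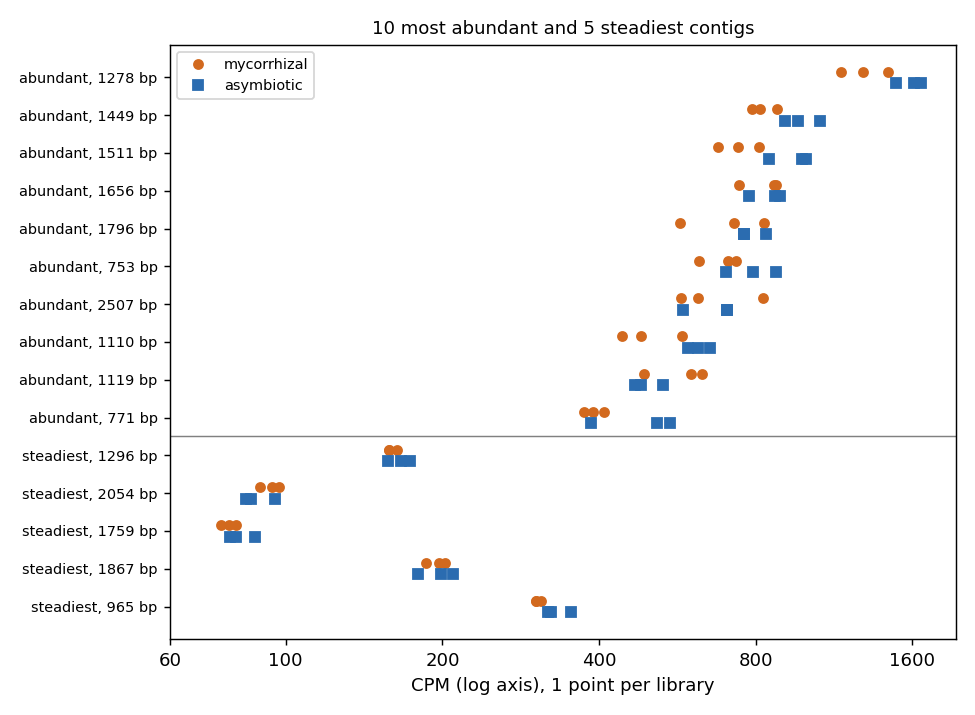
CPM in each library (horizontal log axis) of the 10 most abundant and the 5 steadiest contigs, with circles for the 3 mycorrhizal and squares for the 3 asymbiotic libraries. In 4 of the 10 most abundant and 1 of the 5 steadiest, every mycorrhizal library lies below every asymbiotic one. Of the 1694 contigs of the same length and CPM minimum, 25.7% were lower in this way and 15.2% higher.

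Within the limit set by the rule, the contigs still differed in direction. In 113 the mean was higher in mycorrhizal and in 126 it was lower. The group ratio was within 1.1-fold either way in 117, and its median on the log2 scale was -0.01, with quartiles of -0.17 and 0.10. The furthest up was a contig of 1590 bp, at 137, 146 and 145 CPM in mycorrhizal and 101, 103 and 103 CPM in asymbiotic replicates 1 to 3. Its group ratio was 1.39. It was followed by one of 2812 bp at 175, 168 and 185 CPM in mycorrhizal and 127, 125 and 132 CPM in asymbiotic replicates 1 to 3, a ratio of 1.37. Both were tight within each group and apart between them.

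The furthest down was a contig of 1395 bp, at 272, 282 and 279 CPM in mycorrhizal and 396, 372 and 341 CPM in asymbiotic replicates 1 to 3. Its group ratio was 0.751. After it came one of 2444 bp at 90.4, 87.0 and 83.5 CPM in mycorrhizal and 109, 122 and 116 CPM in asymbiotic replicates 1 to 3, a ratio of 0.752. None of the reads of this last contig was unique, so its level rests on how reads shared with other contigs were dealt out.

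Mycorrhizal and asymbiotic libraries did not overlap in 52 of the 239, of which 17 were higher and 35 lower in mycorrhizal protocorms. Among all 93242 contigs tested, 8.2% were higher and 12.5% lower without overlap. Among the 1694 of the same length and CPM minimum these were 15.2% and 25.7%. EdgeR's quasi-likelihood test, with Benjamini-Hochberg adjustment over all contigs tested, called none of the 239 at an adjusted p under 0.05, and 5 had an unadjusted p under 0.05. DESeq2 called none and limma-voom 1. Over all contigs tested edgeR called 0.655% higher and 0.249% lower, DESeq2 1.95% and 2.32%, and limma-voom 0.221% and 0.327%. Higher calls thus outnumbered lower ones with edgeR, and lower ones were more numerous with DESeq2 and limma-voom. Of the 1455 abundant contigs that were not steady, edgeR called 21 higher and 70 lower, or 1.24% and 4.13% of the 1694. Because the rule held the 239 within 1.5-fold over these same libraries, a near absence of calls among them was built in. None of these counts bears on the steady contigs beyond describing them.

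**Figure D3:**
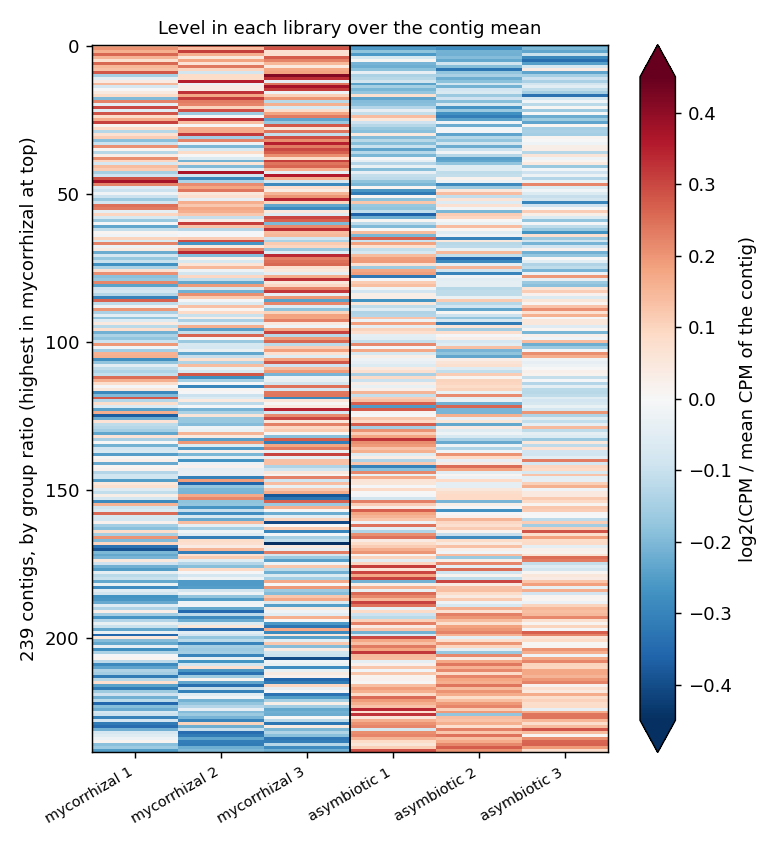
Each row is a steady contig, sorted by the ratio of mycorrhizal to asymbiotic mean CPM, each column a library, and the colour the log2 ratio of the CPM to the contig's mean over the 6 libraries. Contigs at the top are higher in the mycorrhizal columns by up to 0.48 in the log2 group ratio and those at the bottom lower by up to -0.41.

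Replicates of a group differed too, more so among the mycorrhizal libraries. Within the mycorrhizal group the highest library exceeded the lowest by a median of 1.26-fold over the 239, and within the asymbiotic group by 1.16-fold. The mycorrhizal range was the wider one in 165 of the 239, or 69.0%. In the 1455 abundant contigs that were not steady, the medians were 1.65-fold within the mycorrhizal and 1.27-fold within the asymbiotic group. There the mycorrhizal range was wider in 79.7%.

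Fewer contigs were level over the mycorrhizal replicates than over the asymbiotic ones. Of the 1694 contigs, 751 (44.3%) stayed within 1.5-fold over the mycorrhizal replicates and 1404 (82.9%) over the asymbiotic replicates. Both held for 663, and 239 of these (36.0%) stayed within 1.5-fold over all 6 libraries, while 424 did not. Conversely, 1141 of the 1694 had group means within 1.5-fold of each other, and 902 of these went over the limit in some pair of libraries.

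The library with the highest CPM was mycorrhizal replicate 3 for 73 of the 239, against 22 for mycorrhizal replicate 1, 36 for mycorrhizal replicate 2, and 45, 33 and 30 for asymbiotic replicates 1 to 3. The lowest was mycorrhizal replicate 1 for 61, mycorrhizal replicate 2 for 49 and mycorrhizal replicate 3 for 39. For asymbiotic replicates 1 to 3 it was the lowest in 33, 37 and 20. Both extremes fell in mycorrhizal libraries for 65 contigs and in asymbiotic ones for 24. Without mycorrhizal replicate 3 the rule would take 603 contigs. Without each of the other 5 libraries in turn it would take 283 to 387, the most without mycorrhizal replicate 2. Leaving a library out can only keep or add contigs under this rule.

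Counting error was small beside these differences. The library with the fewest reads of a member had 4683 or more, which gives a counting error of at most 1.46%, with a median of 0.974%. Within the groups the chi-square per degree of freedom was 10.4 or more for every member, with a median of 257. Since PCR copies were not told apart by molecular identifiers, these errors cover counting alone.

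The members were also set against each other. For each contig, the SD over the 6 libraries of its log2 ratio to another member was averaged over all the others. The average was 0.18 for the best contig, 0.24 at the median and 0.33 for the worst. This measure is used to rank reference genes for PCR. Here it describes contigs that were chosen for being level.

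Which contigs counted as steady depended on how the libraries were scaled. CPM takes the library total as the base. The TMM factors of edgeR set it from contigs that a library shares with a reference library. DESeq2 sets its size factors from contigs with a read in every library. With TMM scaling 142 of the 239 stayed within the rule, with DESeq2 size factors 124, and with both 120. No member exceeded a ratio of 2 under either. With TMM scaling mycorrhizal replicate 3 became the lowest library for 142 of the 239, and with DESeq2 size factors for 147, against 39 in CPM. The TMM factor of that library was 1.22, and those of the other 5 lay between 0.923 and 1.01. Under TMM scaling the median group ratio of the 239 moved to -0.07 on the log2 scale and with DESeq2 size factors to -0.13.

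The files count unique reads apart from total reads. Of the reads on the 239, 66.4%, 66.9% and 65.0% were unique in mycorrhizal replicates 1 to 3, against 65.1%, 66.4% and 65.3% in asymbiotic replicates 1 to 3. The groups overlapped, at 66.1% ± 0.987 and 65.6% ± 0.701 (SD, n = 3 each). The contigs themselves were of very different kinds. In 65 every read of every library was unique, and in 8 no read of any library was. At least 90% of reads were unique in 96, from 50 to 90% in 43, from 10 to 50% in 68 and under 10% in 32.

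Judged on CPM of unique reads, 116 of the 239 stayed within the limit of 1.5, 113 did not, and 10 had a library with no unique read. Of the 96 contigs with at least 90% unique reads, 84 stayed within the limit, and the largest ratio was 1.59. Of the 43 between 50 and 90% it was 25, of the 68 between 10 and 50% it was 7, and of the 32 under 10% none. In most contigs with under 50% unique reads, the total was thus level while the part that belonged to the contig alone was not. This counts ratios only, and fewer unique reads also give a larger counting error. For 56 of the 239, total reads, unique reads, TMM scaling and DESeq2 size factors all gave a ratio within the limit. Those 56 were 842 to 6418 bp long, with mean levels of 60.9 to 837 CPM, and 40 of them had at least 90% unique reads.

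**Figure D4:**
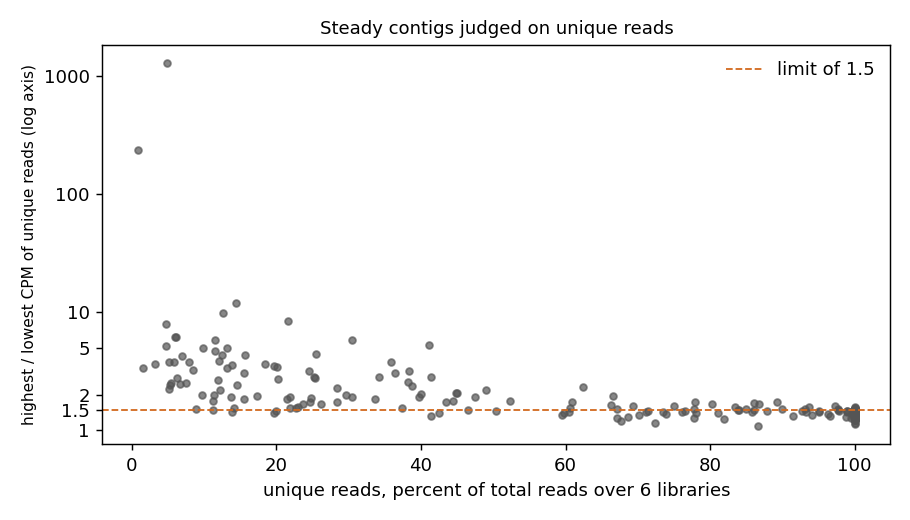
Ratio of highest to lowest CPM of unique reads over the 6 libraries (vertical log axis) against the percentage of a contig's reads that were unique (horizontal axis), for the 229 steady contigs with a unique read in every library. Points at 90% or more lie at 1.59 or below, and points under 10% all lie above the dashed limit of 1.5, up to 1287.

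In 94 of the 239 the unique percentage differed by over 10 points between libraries. It was higher over the mycorrhizal libraries in 49 of these and lower in 45. The widest difference was in a contig of 1287 bp, where 53.9%, 58.7% and 8.11% of the reads were unique in mycorrhizal replicates 1 to 3, against 40.0%, 49.0% and 45.2% in asymbiotic replicates 1 to 3. Mycorrhizal replicate 3 stood alone. Its total there was the highest of the 6, at 196 CPM, against 135 to 163 CPM in the other 5 libraries.

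The 239 contigs belonged to 234 Trinity genes. In 84 cases the steady contig was the only contig of its gene, 35.1%, against 31.5% in the abundant contigs that were not steady. Steady contigs were found in 15.5% of the 542 abundant contigs of single-contig genes and in 9.43% of the 244 in genes of 5 or more contigs. They made up 19.2% of the 479 contigs with a mean under 100 CPM and 7.76% of the 116 at 500 CPM or more. By length, the share was 8.90% of those under 1000 bp, 16.8% from 1000 to 2000 bp, 15.7% from 2000 to 3000 bp and 9.95% of longer ones. These shares describe the contigs of this assembly and were not tested.

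Where a Trinity gene had other contigs, the steady contig usually held most of its reads. Among the 155 steady contigs in such genes it held a median of 95.0% of the gene's reads over the 6 libraries, over 50% in 141 and over 90% in 101. When all contigs of a gene were added up, 202 of the 234 genes still stayed within 1.5-fold. The other 32 were all genes of several contigs, and the widest of these had a ratio of 3.69. In that gene the steady contig of 1005 bp had 121, 147 and 154 CPM in mycorrhizal and 110, 136 and 158 CPM in asymbiotic replicates 1 to 3. A contig of 398 bp beside it had 138, 538 and 124 CPM in mycorrhizal and 63.3, 95.9 and 104 CPM in asymbiotic replicates 1 to 3. Mycorrhizal replicate 2 stood far above the other 5 libraries in the short contig, which edgeR did not call (adjusted p = 0.482, log2 fold change 1.59). This gene was chosen after its values were seen, as were the contigs of 15392 and 1287 bp and the gene with a 3795 bp contig.

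The contig of 15392 bp showed a split of another kind. It had 99.6, 91.7 and 90.5 CPM in mycorrhizal and 111, 120.0 and 118 CPM in asymbiotic replicates 1 to 3. Its groups did not overlap. A second contig of the gene, 15374 bp long, had 0.337, 2.09 and 89.4 CPM in mycorrhizal and 1.71, 1.41 and 1.27 CPM in asymbiotic replicates 1 to 3. It was thus near the level of the longer contig in mycorrhizal replicate 3 alone. Unique reads were 0.669% of the longer contig's total, and none was found in mycorrhizal replicate 3.

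In 4 Trinity genes more than 1 contig was steady, 9 contigs in all. Of these, 7 had no unique read in any library, so their levels are not independent of each other. The other 2 belonged to the gene of the steadiest contig, where a contig of 1269 bp had a ratio of 1.43 and 77.8% unique reads.

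The other contigs of these genes are those that did not meet the rule. Of the 323, 309 had under 50 CPM in some library, 1 was too short, and 13 failed on the highest-to-lowest ratio alone and so had to vary. Their values are therefore not independent of the choice, and what follows describes them. Mycorrhizal and asymbiotic protocorms were compared with edgeR's quasi-likelihood test, fitted on all 93242 contigs. Of the 323, 274 passed the filter on low counts, and 1 was higher and 2 were lower at a Benjamini-Hochberg adjusted p under 0.05. These are 0.365% and 0.730%, beside 0.655% and 0.249% of all contigs tested. DESeq2 called 1 higher and 12 lower, and limma-voom 1 and 1. The median log2 fold change was -0.39 among the 274 and -0.06 among all contigs tested, with 63.5% and 51.6% below 0. Contigs beside the abundant contigs that were not steady had a median of -0.44, with 63.8% of 1745 below 0. Of these 1745, edgeR called 9 higher and 21 lower, in both directions a larger share than among the 274. With edgeR the lower calls beside steady contigs, 2 of 274, were thus not more frequent than beside abundant contigs that were not steady. The DESeq2 calls, 12 lower of the 274, were not compared in this way. Only 1 of the 323 stayed within 1.5-fold over all libraries, and 88 had no read in some library. Reads shared between contigs of a gene tie their counts together, and the median share of unique reads in the 274 was 20.3%.

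The deepest fall was that of TRINITY_DN53983_c0_g1_i2, 1040 bp long, in the gene of the fifth steadiest contig. It had 3, 5 and 6 reads in mycorrhizal and 1776, 4559 and 3144 reads in asymbiotic replicates 1 to 3. This was 0.0245 ± 0.0103 CPM in mycorrhizal and 32.8 ± 17.9 CPM in asymbiotic protocorms (SD, n = 3 each). On the log2 scale the change was -10.44 ± 0.80 (SE), with an edgeR adjusted p of 0.000372. The steady contig of this gene averaged 305 ± 3.79 CPM in mycorrhizal and 332 ± 19.2 CPM in asymbiotic protocorms (SD, n = 3 each). That contig was chosen for its level total. Its unique reads, 24.8% of the total, varied 1.90-fold, and made up 28.9%, 26.5% and 28.6% in mycorrhizal and 13.7%, 22.3% and 22.6% in asymbiotic replicates 1 to 3. The fall was called without each library in turn and on unique reads, while limma-voom gave an adjusted p of 0.0522. With a mean under 10 reads in the mycorrhizal libraries, its fold change depends on the few reads there, and it was named after its values were seen. Added up, the 2 contigs of this gene that were not steady were not called (log2 fold change -5.75, edgeR adjusted p = 0.443). Their sum was 382, 9 and 10 reads in mycorrhizal replicates 1 to 3.

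TRINITY_DN69997_c0_g1_i2, 1762 bp long, fell as well, in the gene of the fifth most abundant member. It had 23, 23 and 8 reads in mycorrhizal and 1918, 2207 and 201 reads in asymbiotic replicates 1 to 3. On the log2 scale it changed by -7.33 ± 1.22 (SE), with an edgeR adjusted p of 0.0249. Asymbiotic replicate 3 was much lower than the other 2 of its group. The call was lost without asymbiotic replicate 2 (edgeR adjusted p = 0.133), without mycorrhizal replicate 1 (0.0577), with limma-voom (0.270), and on unique reads (0.380), which were 5.23% of its total. Added up, the 2 contigs of this gene that were not steady were not called (log2 fold change -2.39, SE 1.82).

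TRINITY_DN70304_c0_g2_i2, 1934 bp long, rose beside a steady contig of 1842 bp. It was among the 13 contigs left out for their ratio alone. It had 206, 236 and 369 CPM in mycorrhizal and 101, 58.8 and 81.2 CPM in asymbiotic replicates 1 to 3. The change was 1.65 ± 0.27 (SE) in log2 units, with an edgeR adjusted p of 0.0220. The call was lost without asymbiotic replicate 2 (edgeR adjusted p = 0.108), with DESeq2 (0.0975) and on unique reads, which were 3.38% of its total (log2 fold change 1.02, edgeR adjusted p = 1.00). Its steady neighbour had 4.73% unique reads, and the sum of the gene varied 2.15-fold over the libraries. Added up, the 4 contigs of this gene that were not steady were called (log2 fold change 1.42, SE 0.25, edgeR adjusted p = 1.37e-06). That call held without each library in turn but not on unique reads.

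When the other contigs were added up per Trinity gene before the test, 136 genes with a steady contig could be tested, of which 3 rose and 10 fell. These sums hold the contigs that did not meet the rule, so they too are not independent of it. That is 2.21% higher and 7.35% lower, beside 2.78% and 2.06% of all 57054 Trinity genes tested without the steady contigs. The median log2 fold change was -0.53 in the 136 and -0.10 in all. Whether the larger share of falls is particular to these genes was not tested. In some of the 13 called genes only 1 other contig was there, so nothing was added up. None of those contigs was called in the fit over all contigs. With library totals in place of TMM factors 4 rose and 6 fell, beside 3.34% and 1.57% of all genes. With DESeq2 size factors 3 rose and 14 fell, beside 2.78% and 2.31%. When mycorrhizal replicate 3 was left out, 6 of 140 rose and 22 fell, beside 4.27% and 3.04%. On unique reads 1 of 116 rose and 5 fell, beside 2.05% and 1.11%. These were not all the same genes. The rise was in the gene with the 1005 bp steady contig, not called on total reads (edgeR adjusted p = 0.651). None of the 3 rises on total reads was called on unique reads. The falls on unique reads included the gene of the fifth steadiest contig, not called on total reads (edgeR adjusted p = 0.443).

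The changes called in the rest of a gene reached contigs of fair abundance. In the gene of the second most abundant member, the 1 other contig had 33.0, 12.9 and 12.2 CPM in mycorrhizal and 57.6, 60.2 and 57.9 CPM in asymbiotic replicates 1 to 3. It fell by 1.69 on the log2 scale (SE 0.33, edgeR adjusted p = 2.74e-05), beside a steady contig at 903 CPM on average. With 1 other contig, nothing was added up in this gene. The same contig was not among the 2 called lower in the fit over all contigs. In the gene of the tenth most abundant, the 2 others together had 231, 200.1 and 234 CPM in mycorrhizal and 339, 363 and 393 CPM in asymbiotic replicates 1 to 3. They fell by 0.87 (SE 0.23, edgeR adjusted p = 0.00600), and made up 38.8% of the gene's reads. The call was lost without asymbiotic replicate 3 (edgeR adjusted p = 0.0987). These genes were shown because they belong to members described above and were called. The rest was not called in the genes of the fifth, seventh and eighth most abundant members (log2 fold change -2.39, -0.35 and -0.04). Nor was it called beside the steadiest contig (0.25) or beside the contigs of 1590, 2812 and 2444 bp described above (-0.10, 0.42 and -0.59).

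Of the 10 falls, 4 were called without each of the 6 libraries in turn, and of the 3 rises, 1. The largest rise rested on mycorrhizal replicate 3, where the rest of a gene with a 3795 bp steady contig had 65.5 CPM, against 3.60 and 0.208 CPM in mycorrhizal replicates 1 and 2 and 0.330 to 0.727 CPM in the asymbiotic libraries. Its edgeR adjusted p was 0.588 without that library and 0.238 without asymbiotic replicate 2.

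**Figure D5:**
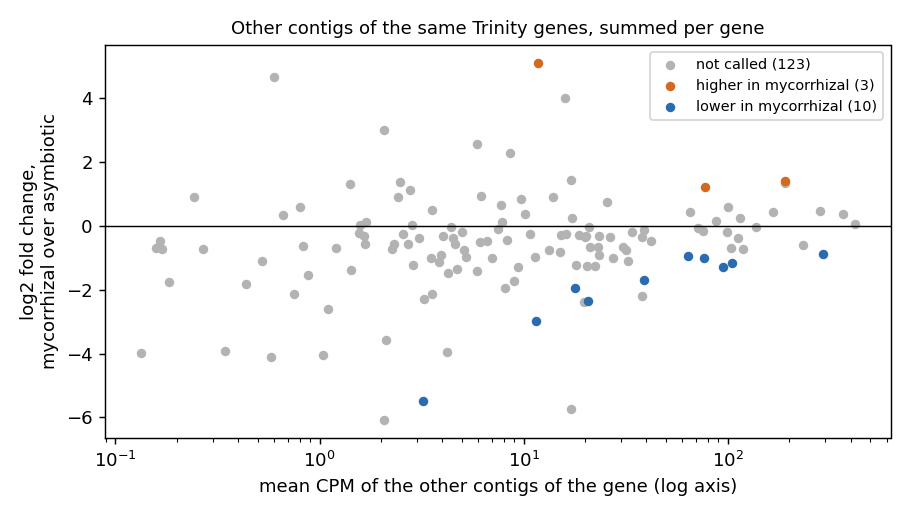
Log2 fold change, mycorrhizal over asymbiotic (vertical axis), of the other contigs of each Trinity gene with a steady contig, summed per gene, against their mean CPM over the 6 libraries (horizontal log axis), for 136 genes. The 3 genes called higher and 10 called lower by edgeR are coloured, and 99 of the 136 points lie below 0.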

How the data were processed

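RNA of 3 mycorrhizal and 3 asymbiotic samples was sequenced. Per the series' design text, the authors assembled the reference with Trinity from asymbiotic reads and aligned all reads to it. The aligner, the counter, the strand setting and the way shared reads were dealt out stay not given in the sources used here. For each library and contig the authors deposited unique and total read counts, not normalized, and RPKM, per the file headers. CPM was computed from total counts and column sums, and contig length from counts and RPKM, which gave whole numbers within 0.01 bp. A Trinity gene is the identifier without its isoform suffix.

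Groups were compared with edgeR 4.0.16 in R 4.3.3 (filterByExpr, TMM factors, robust quasi-likelihood F-test, Benjamini-Hochberg adjustment, threshold 0.05), over 93242 contigs or 57054 Trinity genes. The SE was taken as the size of the log2 fold change over √F. The procedure was tested on simulated data, in which the spread between replicates was set lower than in these libraries. DESeq2 1.42.0, limma 3.58.1 (voom), other scalings, no filter, unique reads, a replicate block and leaving out each library were alternatives. Nothing in the labels says that replicates came from separate cultures, so p-values measure the spread between these samples.

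Members and lists were chosen with earlier results of these data known. Described one by one were the 10 most abundant, the 5 steadiest, the 2 furthest up and 2 furthest down between groups, and the 3 contigs on each side of every threshold. Of their neighbours, up to 2 called higher and 2 called lower were to be named, where the group with fewer reads averaged 10 or more.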

Additional observations from a re-analysis of the deposited data

How the results depend on the processing

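The number of steady contigs, 239, followed the limits of the rule. It was 23 under the stricter limit tried on the ratio and 828 at a limit of 2, 423 at a minimum of 20 CPM and 125 at 100 CPM. It was 379 for reads summed per Trinity gene, and 116 when unique reads had to meet the limit too, an alternative chosen after seeing the data. Leaving out each library gave 283 to 603, where the count could only stay or rise because the rule must hold in every library. The median log2 group ratio of the 239, -0.013, was -0.074 with TMM scaling, -0.127 with DESeq2 size factors, and -0.06 to 0.0046 with each library left out. The group difference in their share of reads, -0.146 points, was -0.0552 points as a share of unique reads and ran over -0.216 to -0.0947 with each library left out, and that in their unique share, 0.500 points, over 0.0983 to 1.05.

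Over all contigs edgeR called 611 higher and 232 lower. DESeq2 called 1822 and 2163, limma-voom 206 and 305, edgeR without a filter 1617 and 841, and on unique reads 1119 and 613. With each library left out, 381 to 1176 were higher and 100 to 721 lower. Among the other contigs of the steady contigs' genes, edgeR called 1 higher and 2 lower of 274 tested. Of the same 274, DESeq2 called 12 lower and limma-voom 1 lower, beside 2.32% and 0.327% of all contigs tested. No filter gave 5 and 5 of 321, beside 1617 and 841 of the 188302 contigs with a read. Unique reads gave 0 and 4 of 189. With each library left out the counts were 0 to 2 and 1 to 4, of 281 to 292 tested. The number of all contigs tested is not given here for unique reads or with a library left out. Of 136 genes, 13 were called in their remaining contigs. On unique reads 6 of 116 were called, not all of them among the 13. Of all Trinity genes, 2.05% were higher and 1.11% lower on unique reads. With each library left out 9 to 28 genes were called, of 137 to 140 tested. The 28 came without mycorrhizal replicate 3, where 4.27% of all Trinity genes were higher and 3.04% lower. For the other libraries left out no such share is given here. The cause was not tested.

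Same-numbered libraries did not deviate together (r of 0.0248, -0.0322 and -0.0586 over contigs). With the replicate number as a block, edgeR called 620 higher and 259 lower over all 93242 contigs tested. It called 1 and 2 of 274 among the other contigs, and 12 of 136 genes. The share of all Trinity genes called with the block is not given here.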
